A study of Mus musculus with 4 samples.

Results

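The myosin heavy chains described here are the products of 8 genes, Myh3, Myh6, Myh7, Myh7b, Myh8, Myh9, Myh10 and Myh11, taken by their symbols from the feature lists of 4 single-cell RNA libraries. These lists name 32286 genes at days 4, 5 and 6 and 32287 at day 11, and all 8 members were present in each. The libraries were made from gastruloids, aggregates of mouse embryonic stem cells that elongate and form derivatives of the germ layers in culture, grown from the wild type Zx1 line. The aggregates received a pulse of the Wnt agonist CHIR99021 from day 2 and the cardiogenic factors bFGF, VEGF and ascorbic acid from day 4, so all 4 groups share the pulse, and whether the day 4 cells had met the factors is not given in the sources used here. Each day is 1 library from at least 8 pooled gastruloids of 1 line, so a difference between days cannot be told apart from a difference between libraries, and there are no replicates and no tests. Cells were split by genes outside the family. Myl7-high cells had at least 2000 CPM and 5 UMIs of Myl7, a myosin light chain of the heart. The authors describe Myl7 in all cardiomyocytes of the embryonic heart, with more in atrial ones, so Myl7-high does not mean atrial. Myog positive cells had at least 1 UMI of Myog, the myogenic factor myogenin. Cells that meet both rules are a class of their own, and all remaining cells are the other cells.

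A class II myosin is built from a pair of heavy chains, each with a motor head that binds actin and splits ATP and a long tail that assembles with others into filaments. Striated muscle exchanges one heavy chain for another as it develops: in the mouse heart the slow beta chain (Myh7) prevails in the ventricles before birth and gives way to the fast alpha chain (Myh6), which atrial muscle carries throughout, while skeletal muscle first uses the embryonic (Myh3) and perinatal (Myh8) chains. Myh7b encodes a slow-tonic chain of the sarcomere, Myh11 the heavy chain of smooth muscle, and Myh9 and Myh10 the non-muscle chains IIA and IIB that drive cell contraction, migration and division in most cells.

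After quality filters and the removal of doublet-like cells, 6555, 6457, 5254 and 7854 cells were kept at days 4, 5, 6 and 11, with medians of 24204, 28072, 24746.5 and 11419 UMIs per cell, so day 11 is the shallowest. Between 5 and 23 cell barcodes are shared by any 2 libraries. A level is given on the CPM scale, computed from UMIs added up over the cells of a group, and a share is the percentage of the UMIs of the 8 members. The kit reads the 3′ end of each transcript, so neither value is divided by gene length, and capture can differ between genes. Values in brackets after a level, share or ratio are exact 95% intervals, which cover counting error only. There were no Myl7-high cells at days 4 and 5, 502 at day 6 (9.56% of kept cells) and 1321 at day 11 (16.8%). Myog positive cells numbered 5, 4 and 3 at days 4, 5 and 6 and 180 at day 11 (2.29%), and 20 cells of day 11 met both rules. The Myl7-high cells of both days had all 8 cardiomyocyte markers that were checked at 2 or more times the CPM of other cells, and the Myog positive cells of day 11 had all 8 skeletal myocyte markers so. Both lists hold Actc1 and Tnni1. The Myog positive cells of day 11 also had 4 of the 8 cardiomyocyte markers so. The Myl7-high cells of each day had 3 of the 8 skeletal myocyte markers so. The Myog positive cells of the earlier days had at most 1 of the 8 skeletal myocyte markers raised, with Myod1, Mymk, Chrna1 and Cdh15 at 0 UMIs. They are given by counts alone.

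The members lie at positions that bear on how their reads are counted. Coordinates are those of GENCODE vM21 on GRCm38. Myh6 (chr14:54941921-54966927, minus strand) and Myh7 (chr14:54970684-54994626, minus strand) are neighbours with 3756 bases between them. Myh3 (chr11:67078300-67102291) and Myh8 (chr11:67277124-67308634) lie 174832 bases apart on the plus strand of chromosome 11, in the cluster of skeletal genes, and Myh10 (chr11:68691559-68816632, plus strand) lies 1382924 bases beyond Myh8. Myh7b is at chr2:155611212-155634307 (plus strand), Myh9 at chr15:77760587-77842175 (minus strand) and Myh11 at chr16:14194535-14291372 (minus strand). Over the last 500 bases of the longest coding transcript, where a 3′ kit places most reads, 42.8% of the 50-base words of Myh6 also occur in Myh7, and 51.0% of those of Myh7 occur in Myh6. With 90-base words these shares were 27.5% and 36.5%. A read that lies wholly in shared sequence cannot be given to 1 of the 2 genes. The length of the reads is not given in the sources used here, and the part of such reads in the counts of the pair was not tested. For Myh8 the share of shared 50-base words was 1.33%, all with the adult skeletal genes Myh1 and Myh2, and for the other members it was 0. An antisense gene overlaps the last 1000 bases of Myh6 (Gm49130) and of Myh7 (Mhrt), and Trpc4ap overlaps those of Myh7b on the opposite strand.

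Promoter windows of 300 bases around the RefSeq start (GRCm38.p6), most of each lying before it, are shown for the members that were high together, the cardiac pair in Myl7-high cells and the skeletal pair in Myog positive cells, with matches to 6 fixed motifs in capitals. The Myh6 window is chr14:54966558-54966857 and the Myh7 window, the first of 2 RefSeq starts, chr14:54994577-54994876, both on the minus strand, and the Myh3 window is chr11:67078050-67078349 and the Myh8 window chr11:67276874-67277173, both on the plus strand.
Myh6: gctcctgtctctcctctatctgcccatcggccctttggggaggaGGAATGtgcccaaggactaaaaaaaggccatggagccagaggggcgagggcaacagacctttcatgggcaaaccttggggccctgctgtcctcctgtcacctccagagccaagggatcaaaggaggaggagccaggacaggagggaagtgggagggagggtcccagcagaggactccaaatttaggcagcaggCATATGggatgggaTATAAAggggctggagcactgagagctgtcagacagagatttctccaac
Myh7: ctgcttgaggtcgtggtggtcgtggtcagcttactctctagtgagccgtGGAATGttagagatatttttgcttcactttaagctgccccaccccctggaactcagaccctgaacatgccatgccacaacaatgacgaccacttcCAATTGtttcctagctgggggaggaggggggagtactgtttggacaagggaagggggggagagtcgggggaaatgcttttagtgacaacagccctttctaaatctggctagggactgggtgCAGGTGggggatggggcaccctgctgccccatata
Myh3: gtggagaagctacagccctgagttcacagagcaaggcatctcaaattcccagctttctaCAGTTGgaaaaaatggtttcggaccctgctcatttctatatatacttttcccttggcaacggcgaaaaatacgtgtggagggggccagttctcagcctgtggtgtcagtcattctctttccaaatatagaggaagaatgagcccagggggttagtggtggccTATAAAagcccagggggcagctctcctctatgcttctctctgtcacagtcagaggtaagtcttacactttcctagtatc
Myh8: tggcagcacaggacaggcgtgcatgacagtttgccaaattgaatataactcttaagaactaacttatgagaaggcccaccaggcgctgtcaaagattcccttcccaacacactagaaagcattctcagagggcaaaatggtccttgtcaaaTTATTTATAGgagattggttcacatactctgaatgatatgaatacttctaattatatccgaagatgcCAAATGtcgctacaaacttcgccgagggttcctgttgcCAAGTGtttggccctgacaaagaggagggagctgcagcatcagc

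Both cardiac windows hold the motif CATTCC, the MCAT element, on the reverse strand (read as GGAATG), at 206 bases before the start in Myh6 and 201 bases before it in Myh7. Of all 32851 promoter windows of the same length, 14.7% hold that motif on either strand. Neither skeletal window holds it. The window of the second Myh7 start, which is not shown and begins after that site, does not hold it. Of the windows of other members, that of Myh10 holds it and those of Myh7b and Myh9 do not. TATAAA begins 29 bases before the start in Myh3 and 1 base after it in Myh6, and 13.6% of all windows hold it on either strand. The MEF2 motif, found in 3.19% of all windows, occurs in the Myh8 window 99 bases before the start, overlapping a TATAAA of the other strand. The E-box CANNTG is in every one of the 4 windows, but also in 72.3% of all windows, and neither AGATAA, the GATA motif (11.2% of all windows), nor the CArG box (1.63%) is in any of the 4. A match describes the letters of these windows and is neither a bound site nor a cause.

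Each of 3 members, Myh6, Myh7 and Myh7b, carries a microRNA in an intron on its own strand, and they are shown because the host genes are the sarcomeric chains of the Myl7-high cells. A further microRNA gene, Mir6923 (chr11:67099804-67099875), overlaps Myh3 on the same strand and is not shown. miR-208a-3p lies in intron 29 of Myh6 (chr14:54949072-54949093), miR-208b-3p in intron 31 of Myh7 (chr14:54975710-54975731) and miR-499-5p in intron 19 of Myh7b (chr2:155622893-155622913), and capitals mark the seed, bases 2 to 8.
miR-208a-3p: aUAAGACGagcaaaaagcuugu
miR-208b-3p: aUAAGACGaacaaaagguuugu
miR-499-5p: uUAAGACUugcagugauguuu

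The 2 miR-208 sequences share 1 seed and differ at 3 bases in all, and the seed of miR-499-5p differs from theirs at 1 base. The deposited counts are of polyadenylated RNA, so the host transcripts were measured and the microRNAs were not.

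Over the 4 days the family passed from non-muscle to sarcomeric chains. Its summed level on days 4, 5, 6 and 11 was 170.4, 117.8, 336 and 1115 CPM. Myh10 held 62.7% (62.2 to 63.3) of it at the start, then 61.65% and 58.9%, and 14.9% (14.7 to 15.1) on the last day. Myh9 held 36.5%, 37.7%, 13.8% and 3.65% on the same days, so that at days 4 and 5 the 2 non-muscle chains made up almost the whole family. Myh6 went from 29 UMIs at day 4 and 19 at day 5 to 13.05% of the family at day 6 and 54.45% (54.2 to 54.7) at day 11, where it was the leading member. Myh7 went from 36 and 16 UMIs to 13.9% and 24.2%. The skeletal chains came last, with Myh3 at 1.72% and Myh8 at 0.561% at day 11 after at most 18 UMIs on any earlier day, and Myh7b and Myh11 were at 0.349% and 0.171% at day 11. In a sum over all cells, more cells of a kind and more of a transcript in each cell cannot be told apart, which is why the classes are given next.

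Counted by cell rather than by UMI, another member led at day 11. When each cell's own share was averaged, so that every cell with a UMI of the family counted the same, Myh10 led at day 11 with 61.35% and Myh6 held 15.2%. Myl7-high cells were 16.8% of the cells and held 96.6% of the Myh6 UMIs, 90.6% of the Myh7 UMIs and 73.1% of the Myh7b UMIs of that day. Myog positive cells were 2.29% of the cells and held 97.9% of the Myh3 UMIs and 65.7% of the Myh8 UMIs. Other cells, 80.6% of the total, held 94.0% of the Myh9 UMIs and 81.5% of the Myh10 UMIs. They were shallower, with a median of 10666 UMIs per cell against 17331 in Myl7-high cells. On the CPM scale Myh10 was higher in them, at 187 against 115.5 in Myl7-high cells.

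**Figure D1:**
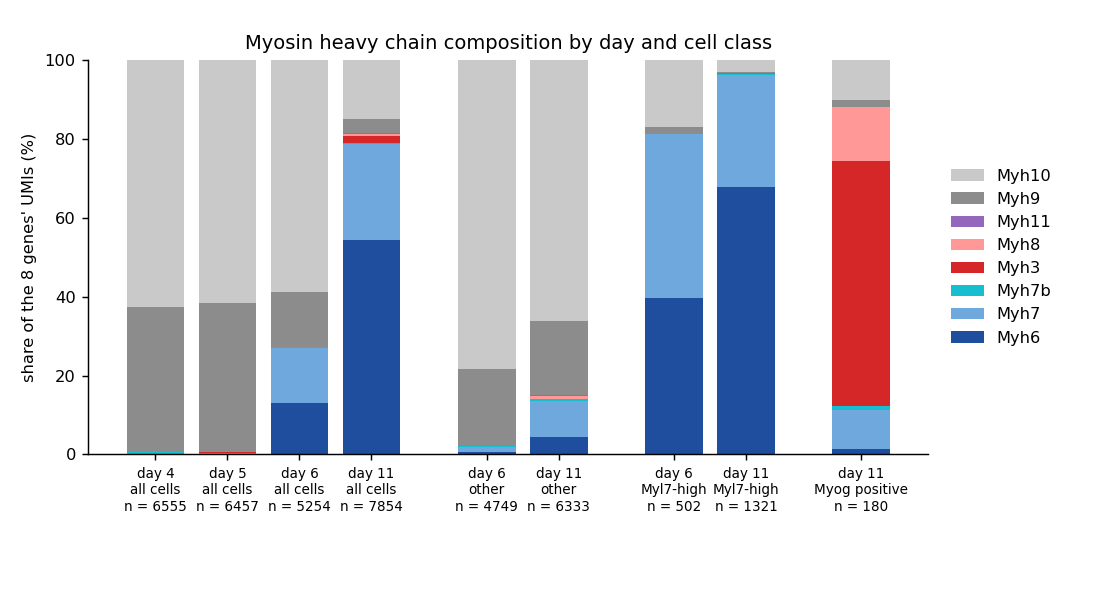
Stacked bars of the share of each of the 8 genes in the UMIs of the family (vertical axis, percent), for all kept cells of days 4, 5, 6 and 11, for other cells and Myl7-high cells of days 6 and 11 and for Myog positive cells of day 11, with the number of cells under each bar. Grey non-muscle chains fill days 4 and 5 and the other cells, blue Myh6 and Myh7 fill the Myl7-high cells (39.6% and 41.5% at day 6, 67.8% and 28.3% at day 11), and red Myh3 and Myh8 the Myog positive cells (62.2% and 13.6%).

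To set these values beside the rest of the transcriptome, each gene with a mean of at least 5 CPM over both sides of a comparison was called higher or lower when CPM plus 1 differed by a factor of 2 or more. From day 4 to day 5, 6.52% of genes were called higher and 3.89% lower, and neither of the 2 members that met this level, Myh9 and Myh10, was called. From day 5 to day 6, 3 of 4 members were called higher (Myh6, Myh7 and Myh10) and none lower, against 10.9% of all genes higher and 3.86% lower. Day 11 against day 6 called 3 of 5 members higher (Myh3, Myh6 and Myh7) and none lower, against 8.72% and 3.3% of all genes. The median log2 ratio over all 8 members was 0.13 from day 5 to day 6 and 2.05 from day 6 to day 11, and over all genes at this level it was 0.17 and 0.02. The members below this level in each comparison are described by their counts.

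In Myl7-high cells of day 6 the heart chains were nearly even. Myh7 held 41.5% (40.7 to 42.25) and Myh6 39.6% (38.9 to 40.4) of the family, at 505 and 483 CPM. Myh10 followed with 17.03% and Myh9 with 1.71%. By day 11 Myh6 led, with 67.8% (67.5 to 68.1) and 2506 CPM, and Myh7 held 28.3% (28.0 to 28.6) at 1045 CPM. Both were thus higher at day 11, Myh6 by a factor of 5.19 (5.06 to 5.33) and Myh7 by a factor of 2.07 (2.01 to 2.125). Myl7, which chose the cells, was itself 1.62 times higher in them at day 11. Myh10 was lower at day 11, 115.5 against 207.5 CPM, a ratio of 0.557 (0.5285 to 0.586), and Myh9 was lower as well, with 8.08 against 20.8 CPM and a ratio of 0.389 (0.324 to 0.467).

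Set against other cells of day 6, the Myl7-high cells had 2 of 4 members called higher (Myh6 and Myh7) and 1 lower (Myh9), where 6.73% of all genes were called higher and 7.09% lower. At day 11 they had 3 of 5 called higher (Myh6, Myh7 and Myh7b) and Myh9 lower, where 10.5% of all genes were called higher and 17.4% lower. The Myh6 level was 269.7 times that of other cells at day 6 and 202 times at day 11, and for Myh7 the factors were 174 and 40.1. Without the other cells at 5000 CPM or more of cardiomyocyte markers, a choice made after seeing the data, the factors were 275.9 and 354.6 for Myh6 and 185.0 and 252.5 for Myh7. Myh9 went the other way, at 0.424 and 0.1535 times the level of other cells. Myh10 was level with other cells at day 6, at 1.052 times (1.011 to 1.095), and at 0.618 times (0.595 to 0.643) at day 11. Over all 8 members, those under the level used for calls included, the median log2 ratio was 0.11 at day 6 and 1.16 at day 11. Over all genes at that level it was -0.08 and -0.26.

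**Figure D2:**
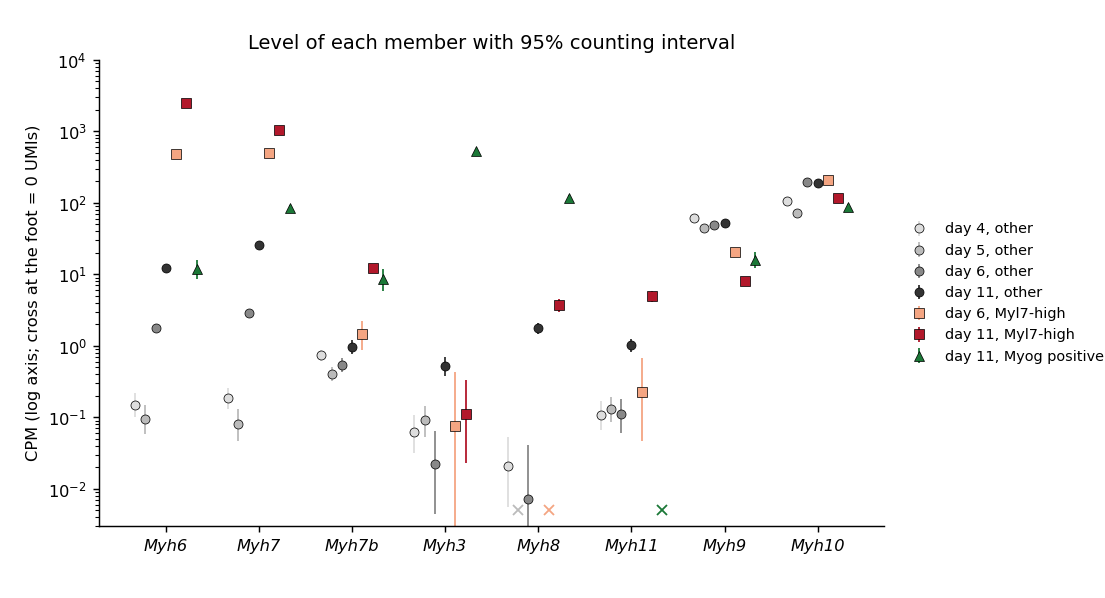
Level of each of the 8 genes (CPM, log axis) in other cells of days 4, 5, 6 and 11 (circles), Myl7-high cells of days 6 and 11 (squares) and Myog positive cells of day 11 (triangles), with 95% counting intervals as bars and crosses at the foot for 0 UMIs. The squares stand highest for Myh6 (483 and 2506 CPM) and Myh7 (505 and 1045), the triangles for Myh3 (534) and Myh8 (117), and the circles of Myh9 and Myh10 lie between 44.3 and 197 CPM on every day.

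The number of single cells in which the pair was detected differed between the days in the same direction. A UMI of Myh6 was found in 67.5% of Myl7-high cells at day 6 and 89.3% at day 11, or 48.0% and 85.5% once each cell had been thinned at random to 5000 UMIs. For Myh7 these shares were 71.7% and 75.4%, and 53.2% and 57.3% after thinning. Endothelial cells, which do not build sarcomeres, gave the background: a UMI of Myh6 in 4.92% of them at day 6 and 7.60% at day 11 (1.295% and 2.31% thinned), and of Myh7 in 4.15% and 5.23% (0.259% and 1.03% thinned). The median depth was 23147.5 UMIs in Myl7-high and 32054.5 in endothelial cells at day 6, and 17331 and 16972 at day 11. After thinning, both transcripts of the pair were found in 32.1% of Myl7-high cells at day 6 and 54.7% at day 11. Cells with Myh7 alone made up 21.1% at day 6 and 2.57% at day 11, those with Myh6 alone 15.9% and 30.8%, and those with neither 30.9% and 11.9%.

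The share of Myh6 in the sum of Myh6 and Myh7 was 48.9% (48.0 to 49.7) over the Myl7-high cells of day 6 and 70.6% (70.3 to 70.9) over those of day 11. Single cells lay far apart around these values. Among the 258 cells of day 6 with at least 10 UMIs of the pair, the median share was 37.5% with quartiles at 16.5% and 78.5%, and 78 cells lay under 20% and 62 at 80% or more. Among the 1019 such cells of day 11 the median was 92.6% with quartiles at 46.2% and 97.1%, and 134 lay under 20% and 623 at 80% or more. Most cells of day 11 therefore had mainly Myh6, and a smaller number with more Myh7 made up the rest of the range.

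Myl2, the ventricular regulatory light chain, marked a group of cells with more Myh7 at day 11. The 372 Myl2-high cells (at least 1000 CPM of Myl2) had 46.5% (46.0 to 46.95) of the pair as Myh6, against 88.8% (88.5 to 89.0) in the 949 remaining Myl7-high cells. Single Myl2-high cells also lay far apart. Of the 355 with at least 10 UMIs of the pair, 113 lay under 20% and 77 at 80% or more. Over all Myl2-high cells the Myh7 level was 2571 against 334 CPM, a ratio of 7.71 (7.49 to 7.93), whereas Myh6 was 2232 against 2634 CPM, a ratio of 0.847 (0.833 to 0.8615). The shift of the share with Myl2 thus lay almost wholly in Myh7. Day 6 was different, because the 39 Myl2-high cells had more of both, Myh6 at 1501 against 372 CPM and Myh7 at 1358 against 412 CPM. These are ratios of 4.04 (3.82 to 4.26) and 3.29 (3.12 to 3.48), and the share of Myh6 was 52.5% in Myl2-high and 47.4% in other Myl7-high cells.

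Shox2, a transcription factor of the sinus venosus and its pacemaker cells, marked cells with little Myh7 on both days. At day 11 the 559 Myl7-high cells with a Shox2 UMI after thinning had 90.4% of the pair as Myh6, against 59.2% in the 647 without, with Myh7 at 269.8 against 1692 CPM (ratio 0.1595) and Myh6 at 2543 against 2457 CPM (ratio 1.035). At day 6 the 127 cells with Shox2 had 71.25% of the pair as Myh6 against 46.5%, with Myh7 at 113 against 631 CPM and Myh6 at 280.3 against 548 CPM. Nppa, the atrial natriuretic peptide of working atrial and trabecular muscle, marked cells with much Myh6: the 112 cells with it at day 11 had 4470.1 CPM of Myh6 against 2245 in the 1094 without, a ratio of 1.99 (1.95 to 2.03), and 577 against 1105 CPM of Myh7. Only 3 Myl7-high cells had Nppa at day 6, so no value is given for it there.

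**Figure D3:**
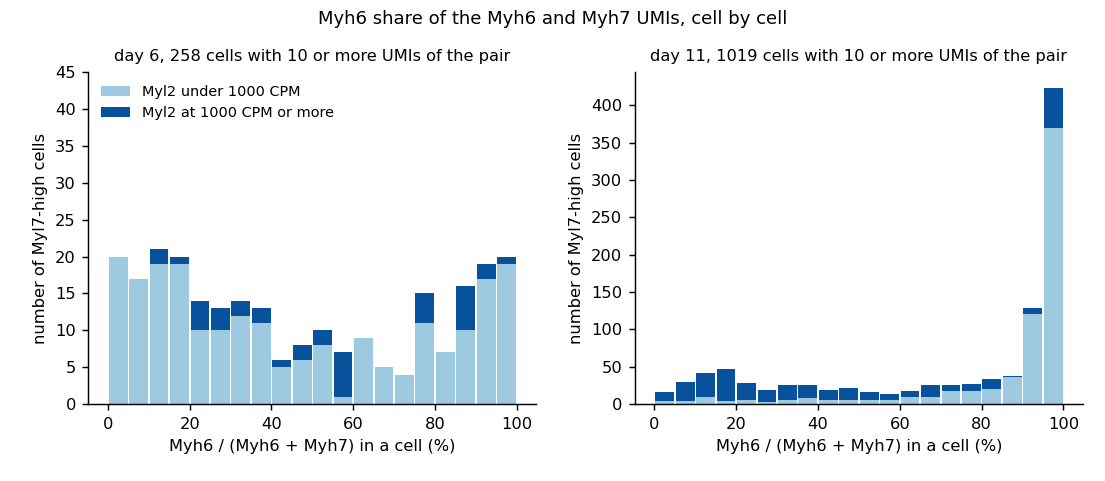
Histograms of the share of Myh6 in the Myh6 and Myh7 UMIs of single Myl7-high cells (horizontal axis, percent; vertical axis, number of cells, on a scale of its own in each panel) at day 6 (258 cells) and day 11 (1019 cells), with Myl2-high cells in dark blue stacked on the rest in light blue. Day 6 spreads over the whole range with a median of 37.5%, and day 11 piles up at the right edge with a median of 92.6% and its Myl2-high cells make up most of the cells under 60%.

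The same averaging over cells put Myh10 first in the Myl7-high cells of day 6, with 37.6% against 31.5% for Myh7, and left Myh6 first at day 11 with 62.1%.

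The level of Myl7 itself did not order both chains in the same way. At day 11, cells with 500 to 2000 CPM of Myl7 (139 cells, counted among other cells) had 307 CPM of Myh6 and 998 CPM of Myh7. Between 2000 and 8000 CPM (327 cells) these were 1149 and 2132 CPM, and above 8000 CPM (994 cells) 2896 and 733 CPM. Myh6 thus was higher in each bin than in the one before while Myh7 was highest in the middle one. At day 6 the same bins gave Myh6 at 8.498, 76.1 and 808 CPM and Myh7 at 28.1, 164.6 and 777 CPM, both highest in the top bin. Just outside the limit of 2000 CPM, 33 cells of day 11 with 1500 to 2000 CPM of Myl7 had 500 CPM of Myh6 and 2255 of Myh7, and just inside it 25 cells with up to 2500 CPM had 1078 and 2185.5. The limit therefore leaves some cells rich in Myh7 among the other cells of day 11.

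A few such cells held most of the Myh7 outside the Myl7-high class. In other cells of day 11 Myh7 made up 9.23% of the family at 26.05 CPM, and 30 cells with 5 or more UMIs, chosen after their values were seen, held 1850 of its 2149 UMIs there (86.1%). These cells had 1424 CPM of Myl7, under the limit, and 4819.9 CPM of Myl2, with Tnnt2 at 4030.3 CPM and Pln at 864 CPM. A choice by the summed level of the 8 cardiomyocyte markers (at least 5000 CPM), added after the data had been seen, took 1315 cells, 1276 of them Myl7-high and 39 other cells, and those 39 held 84.2% of the Myh7 and 43.5% of the Myh6 of the other cells. Without them Myh10 made up 73.4% of the family in other cells in place of 66.2%. The pair held 69.4% Myh6 under this choice in place of 70.6%.

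Myh7b was the least abundant of the sarcomeric chains of the heart. In Myl7-high cells it had 19 UMIs at day 6 (1.45 CPM) and 323 at day 11 (12.1 CPM, 10.85 to 13.5), a ratio of 8.40 (5.29 to 14.1), larger than those of Myh6 and Myh7. A UMI of it was found in 18.2% of these cells at day 11 (5.64% thinned), against 0.475% of endothelial cells (0 thinned). It was higher in Myl2-high than in the remaining Myl7-high cells of day 11, 17.15 against 9.81 CPM, a ratio of 1.75 (1.39 to 2.19), so it followed Myh7 in direction but not in size. Myog positive cells had it at 8.53 CPM (5.91 to 11.9). Before any muscle class was present Myh7b already had 141 UMIs at day 4 and 81 at day 5, and the cells with pluripotency markers (at least 4 of 8 and of no other list) had it at 2.78 CPM (517 cells) and 2.63 CPM (301 cells), above the 0.422 and 0.247 CPM of cells with no list. This was not particular to these cells, since Myh7b was at 1.40 CPM in cells with endoderm markers at day 4. At day 5 it was at 3.47 CPM in the 39 cells of several lists. Nor was it particular to Myh7b. At day 4 the cells with pluripotency markers also had Myh6 at 0.97 against 0.0669 CPM and Myh3 at 0.647 against 0.00669 CPM, while Myh7 had 0 UMIs. Trpc4ap overlaps the 3′ end of Myh7b on the other strand, and its part in the early Myh7b counts was not tested.

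In the 180 Myog positive cells of day 11 the embryonic chain led. Myh3 made up 62.2% (60.6 to 63.85) of the family at 534 CPM and Myh8 13.6% (12.5 to 14.8) at 117 CPM. Myh10 followed at 10.1% and Myh7, the beta chain that slow skeletal fibres also use, at 9.82% (84.3 CPM). Myh9 held 1.87%, Myh6 1.37% and Myh7b 0.993%, and Myh11 had 0 UMIs. Of 6 members at the level used for calls, 3 were called higher than in other cells (Myh3, Myh7 and Myh8) and 2 lower (Myh9 and Myh10), where 4.35% of all genes were called higher and 15.8% lower. The ratio to other cells was 1025 (759 to 1421) for Myh3, 66.7 (55.2 to 80.9) for Myh8 and 3.24 (2.88 to 3.63) for Myh7, and 0.9501 (0.694 to 1.27) for Myh6. These ratios of Myh7 and Myh6 rest on the 39 other cells at 5000 CPM or more of cardiomyocyte markers, and without these cells they were 20.4 (17.5 to 23.8) and 1.67 (1.21 to 2.25). The median log2 ratio over the 8 members was 0.79, with -0.31 over all genes at the level used for calls.

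A UMI of a skeletal heavy chain was detectable at this depth in part of the Myog positive cells. Myh3 was found in 70 of the 180 (38.9%, 31.7 to 46.4; 32.0% thinned) and Myh8 in 49 (27.2%; 19.1% thinned). In endothelial cells both had 0 of 421, which by a floor of 3 cells allows a share of up to 0.713% of cells with a UMI, at a median depth of 16972 UMIs against 19974.5. Of the 49 cells with Myh8, 43 also had Myh3 (87.8%), whereas 61.4% of the cells with Myh3 had Myh8. Of the 54 cells with Myh7, 41 had Myh3 (75.9%). With every cell counting the same, Myh10 led in this class with 46.1% and Myh3 held 31.2%, and the highest cell had 167 Myh3 UMIs.

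The cells with 5 or more Myog UMIs held most of both skeletal chains. These 108 cells had 796 CPM of Myh3 and 172 CPM of Myh8, against 23.9 and 7.59 CPM in the 53 cells with 1 Myog UMI, which are ratios of 33.4 (21.99 to 53.4) and 22.7 (10.9 to 56.8). A single cell held 21 of the 22 Myh3 UMIs and 6 of the 7 Myh8 UMIs of the cells with 1 Myog UMI. Without it 1 UMI of each was left, and the ratios were 729.6 (130.8 to 28832) and 157.9 (28.2 to 6252), a choice made after seeing the data. The 19 cells with 2 to 4 Myog UMIs had 14.15 CPM of Myh3, with all 6 UMIs in a single cell, and 11.8 CPM of Myh8. Myh10 was the leading chain in the cells with 1 Myog UMI (60.9% of the family) and in those with 2 to 4 (72.1%), but held 5.08% in those with 5 or more. Median depth differed among these groups, at 14548, 19419 and 23352.5 UMIs per cell, and its part in the split was not tested. As a description over the 180 cells, which share 1 library and differ in depth, Spearman's rho was 0.66 for Myog with Myh3, 0.73 for Myh3 with Myh8 and 0.65 for Myh3 with Myh7.

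**Figure D4:**
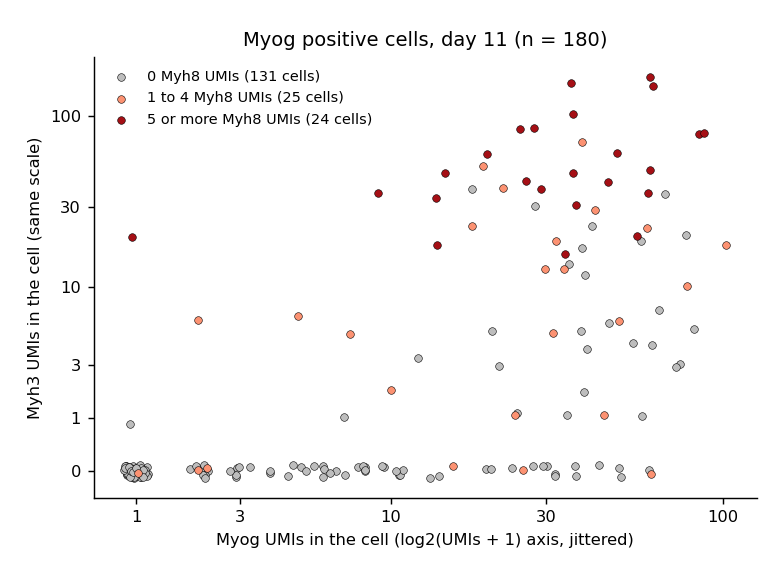
Myh3 UMIs against Myog UMIs in each of the 180 Myog positive cells of day 11 (both axes log2(UMIs + 1), points jittered), coloured by the number of Myh8 UMIs. Most cells with 1 Myog UMI lie at 0 Myh3 UMIs, and the 24 cells with 5 or more Myh8 UMIs all have Myh3.

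Progenitor genes split the same cells. The 70 Myog positive cells with a UMI of Pax7 or Myf5, transcription factors of muscle progenitors and early myoblasts, had 195 CPM of Myh3, 35.0 of Myh8 and 37.75 of Myh7. The 110 without either had 822 CPM of Myh3, 187 of Myh8 and 124 of Myh7, which are 4.22 (3.76 to 4.74), 5.33 (4.09 to 7.05) and 3.28 (2.51 to 4.33) times as much. Myh10 went the other way, at 106 against 70.0 CPM. The depth was 24655 UMIs in the cells with these genes and 17496.5 in those without, so the cells with less Myh3 were the deeper ones. Of the 70 cells with these genes 10 had a Myh3 UMI, against 60 of the 110 without. A single cell of the 70 held 103 of their 356 Myh3 UMIs, 36 of their 64 Myh8 UMIs and 21 of their 69 Myh7 UMIs. The ratios were not recomputed without that cell.

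The 20 cells of day 11 that were both Myl7-high and Myog positive carried the chains of the heart. Myh6 was at 2213.5 CPM and Myh7 at 698.5 CPM, and Myh3 had 0 UMIs. Of these cells 18 had a single Myog UMI and none more than 2, and Myod1, Mymk, Chrna1 and Cdh15 were at 0 UMIs. Outside the Myog positive class Myh3 had 43 UMIs in other cells of day 11, 18 of them in a single cell, and 3 in the Myl7-high cells.

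More of Myh8 than of Myh3 lay outside the Myog positive cells at day 11. Myh8 had 98 UMIs in 45 Myl7-high cells, with at most 6 in a cell, and 145 UMIs in 40 other cells. Among Myl7-high cells deep enough to be thinned, 85 UMIs were in cells with Shox2 and 10 in cells without, at 7.12 against 0.699 CPM (ratio 10.2, 5.28 to 22.02). The 45 cells with Myh8 had Myh6 at 2510.1 CPM, near the 2506 of the rest, Myh7 at 517 against 1072 CPM, and 0 UMIs of Myh3, and they were chosen after their values were seen. At day 6 Myh8 had 0 UMIs in Myl7-high cells, and set against a floor of 3 UMIs over that class the level at day 11 was 16.1 times higher. The counting interval of the day 6 level reached 0.281 CPM, a little above that floor, beside 3.68 CPM (2.99 to 4.49) at day 11. Myh1 and Myh2, which share words with the end of Myh8, had 0 UMIs in the Myl7-high cells.

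Among other cells Myh8 was highest in the neural progenitor set, 7.87 CPM (5.99 to 10.15) in 431 cells, with 0 UMIs in the mesenchyme, endothelial, neuron and macrophage sets. A set holds the cells with a UMI of at least 4 of the 8 genes of 1 list only. The 24 other cells with 2 or more Myh8 UMIs, chosen after their values were seen, held 129 of the 145, and 8 of them were in the neural progenitor set, 1 in the skeletal progenitor set, 3 in several and 12 in none. They had Sox2 at 355 against 70.6 CPM in the remaining other cells, Fabp7 at 2357.5 against 341 CPM and Zic1 at 153 against 39.6 CPM, while Hes5 was at 16.3 against 60.7 CPM and Olig3 had 0 UMIs. Only 1 of the 24 had Myh3, and none had Myog by the rule of the class. The sets do not name these cells, and no cell type is given to them.

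Myh11, the smooth muscle chain, was scarce throughout. It had 21, 26, 18 and 217 UMIs at days 4, 5, 6 and 11, and of those of day 11 the Myl7-high cells held 60.4% and other cells 38.7%. In Myl7-high cells it was at 4.925 CPM (4.12 to 5.84) at day 11 and had 3 UMIs at day 6, a ratio of 21.6 (7.22 to 106). It was found in 28 cells of the class (2.12%; 1.16% thinned), against 0.2375% of endothelial cells (0.257% thinned). The Shox2 split of the Myl7-high cells of day 11 gave 10.1 CPM with Shox2 against 0.769 without (ratio 13.1, 7.06 to 26.9), and the Myl2 split 0.591 CPM in Myl2-high against 6.94 in the remaining cells. Myh11 was also lower with Nppa than without, at a ratio of 0.1842 (0.03748 to 0.5504), from 3 UMIs against 128.

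The 18 Myl7-high cells with 2 or more Myh11 UMIs, chosen after their values were seen, held 121 of the 131. Beside Myh11 they had more of other smooth muscle genes than the remaining Myl7-high cells, with Acta2 at 9621.5 against 1914 CPM, Tagln at 1414 against 68.75 CPM and Tpm2 at 821.5 against 176 CPM. They had 914.6 against 2529 CPM of Myh6, 74.4 against 1059 CPM of Myh7 and 335 against 112 CPM of Myh10, and Myl7 was at 14064 against 17245 CPM. Smtn, which encodes smoothelin, did not stand apart, at 10.6 against 11.2 CPM. Among other cells of day 11 Myh11 was at 1.02 CPM, and 50 of its 84 UMIs there lay in the mesenchyme set (1.875 CPM, 2132 cells). The other cells were ranked by the summed level of 8 smooth muscle genes and cut into 5 groups of equal size, and at day 11 these had Myh11 at 0.283, 0.4745, 0.931, 0.876 and 2.81 CPM from the lowest to the highest. At day 6 none of the 5 groups had more than 5 UMIs of it, and the list reached 1058 CPM in the highest group.

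The non-muscle chains filled the other cells, and Myh10 led on every day. In other cells of days 4, 5, 6 and 11 Myh10 was at 107, 72.6, 197 and 187 CPM, and Myh9 at 62.2, 44.3, 49.0 and 52.7 CPM. Both were lower at day 5 than at day 4, with ratios of 0.679 for Myh10 and 0.711 for Myh9. From day 5 to day 6 Myh10 was 2.715 times higher (2.66 to 2.77) and Myh9 1.11 times (1.07 to 1.14), so the difference lay mainly in Myh10. Between days 6 and 11 neither differed by much in other cells, at 0.947 (0.929 to 0.966) and 1.075 (1.035 to 1.117) times.

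The marker sets differed in which of the 2 genes was higher. At the later days Myh9 was highest in the endothelial set, with 123 CPM at day 6 and 132 CPM (124.9 to 140) at day 11, and Myh10 there was at 111 and 129 CPM. The endoderm set had 121, 79.7 and 100.2 CPM of Myh9 at days 4, 5 and 6, against 68.2, 43.35 and 93 CPM of Myh10. The 50 cells of the macrophage set at day 11 had 107 CPM of Myh9 (90.7 to 125) and 15.85 CPM of Myh10, the lowest Myh10 among sets of at least 50 cells on any day. At the other end, the mesenchyme set had 297.5 CPM of Myh10 at day 6 and 247 CPM at day 11, with 41.9 and 55.4 CPM of Myh9. Neurons had 114 CPM of Myh10 and 9.18 CPM of Myh9, and neural progenitors 139.5 and 12.7 CPM, so in both sets Myh10 made up 82.8% and 82.4% of the family. Myl7-high cells of day 11, with 115.5 CPM of Myh10 and 8.08 CPM of Myh9, were near the neuron set in these genes.

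Myh10 also followed smooth muscle genes within the other cells. By the same 5 groups it was at 124, 158, 195, 229 and 316 CPM at day 6 and at 129.8, 169.4, 208.5, 211 and 228 CPM at day 11, from the lowest to the highest. Myh9 did not rise from group to group, at 45.7, 55.2, 46.55, 46.1 and 51.3 CPM at day 6 and 36.9, 61.5, 49.5, 45.8 and 70.4 CPM at day 11. The highest Myh9 level was nevertheless in the highest group at days 4, 5 and 11. At day 4 the groups had 60.8, 56.1, 55.3, 61.5 and 79.8 CPM, and at day 5 38.3, 36.9, 39.3, 46.1 and 61.75 CPM. Earlier, the pluripotent set had less Myh10 than Myh9, 57.7 against 68.55 CPM at day 4 and 29.2 against 50.7 CPM at day 5. Within the Myl7-high cells Myh10 was lower where Myl2 was high, at 97.6 against 219 CPM at day 6 and 87.0 against 129 CPM at day 11, and in Myog positive cells it was lower where Myog was high, at 60.2 against 148.5 CPM.

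**Figure D5:**
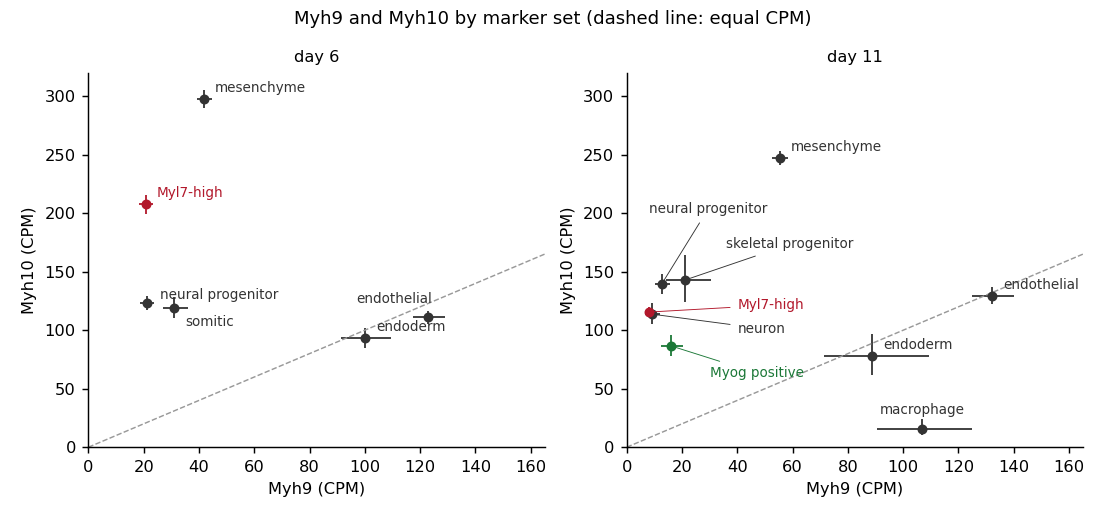
Myh10 against Myh9 (both in CPM) in the marker sets of other cells (black), Myl7-high cells (red) and Myog positive cells (green) at day 6 (left) and day 11 (right), with 95% counting intervals as bars and a dashed line of equal levels. Mesenchyme stands at the top (297.5 and 247 CPM of Myh10), endothelial cells at the right (123 and 132 CPM of Myh9), and macrophages at the foot of day 11 (15.85 CPM of Myh10).

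Among the 6 further class II heavy chain genes in the lists, Myh1, Myh2, Myh4, Myh13, Myh14 and Myh15, the highest count was 222 UMIs, for Myh14 at day 4. The adult fast chains of skeletal muscle were few, and at day 11 the Myog positive cells held 42 of 47 Myh1 UMIs, 24 of 28 Myh2 UMIs and 8 of 12 Myh4 UMIs. Myh13, a chain of extraocular muscle, had 29 of its 32 UMIs of day 11 in Myl7-high cells, though it also had 61 UMIs at day 4 when no such cell was present. When they were added to the family, the share of Myh3 in Myog positive cells decreased by 1.33 points, the most of any share in any group.

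The partners of the thick filament are a list of 19 genes for proteins that bind, fold, phosphorylate or turn over myosin and its filament. The list was chosen with earlier results of these data known. In Myl7-high cells 11 of the 12 at the level used for calls were higher than in other cells at day 6, and 11 of 14 at day 11, where Mylk, the light chain kinase of smooth muscle, was the 1 called lower, where 6.73% and 10.5% of all genes were called higher at these days. Examples at day 11 are Mybpc3, cardiac myosin-binding protein C (344 against 2.84 CPM), Ttn, titin (3841 against 41.8 CPM), Unc45b, a chaperone of the myosin head (124 against 3.26 CPM), and Mylk3, the cardiac light chain kinase (72.7 against 0.836 CPM). In Myog positive cells 12 of 15 were higher and Mylk was lower, where 4.35% of all genes were called higher. Other genes of the list were high there, Mybph at 227 against 0.1697 CPM and Mybpc1 at 146 against 7.33 CPM, while Mybpc3 was at 1.003 CPM and Mylk3 at 0 UMIs. Over all 19 genes, those under the level used for calls included, the median log2 ratio was 2.98 and 4.88 in Myl7-high cells of days 6 and 11. In Myog positive cells it was 3.545. Over all genes at that level the medians were -0.08, -0.26 and -0.31.

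Likeness of pattern was measured as Pearson's r of log2(CPM + 10) over 24 sums of at least 50 cells (classes and marker sets by day, some of which share cells), among 5956 genes that reached 50 CPM in a sum. It is given as a description without a test, since the sums of a day share a library. Where a member is high in 1 sum alone, as Myh3 is in the Myog positive cells, r rests on that sum, and any gene high there alone scores near 1. Closest to Myh3 were Myog, the gene that chose its class, Mymk and Tnnc2 (r of 0.9996, 0.9996 and 0.9989). Closest to Myh6 were Tnni3, Mybpc3 and Myl2 (0.996, 0.991 and 0.989), and closest to Myh7 Myom1, Myo18b and Jph2 (0.9815, 0.977 and 0.974). For Myh8 they were Gm28653, Tnnc2 and Mylk4 (0.9675, 0.964 and 0.963), for Myh7b Cav3, Myoz2 and Mb (0.938, 0.920 and 0.9195) and for Myh11 Nppa, Adprhl1 and Rgs6 (0.907, 0.903 and 0.8999). For Myh9 they were Cd2ap, Iqgap1 and Zfp36l2 (0.923, 0.896 and 0.856), and for Myh10 Maged1, Zcchc3 and Polr2m (0.921, 0.914 and 0.904). Between members r was 0.964 for Myh3 with Myh8 and 0.956 for Myh6 with Myh7, and -0.33 for Myh9 with Myh10. The r of Nppa with Myh11 describes sums only, in which Myh11 reached at most 4.925 CPM, less than the 10 added. Within the Myl7-high cells of day 11 the genes went opposite ways. Myh11 was lower in cells with Nppa, and the 18 cells with 2 or more Myh11 UMIs had Nppa at 7.976 against 172.4 CPM.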

How the data were processed

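Cells of wild type Zx1 gastruloids were read with a 10x 3′ kit, 1 library a day. Per the labels, the authors aligned and counted reads with Cell Ranger 3.1.0 on mm10; the header of the day 11 matrix names 6.0.1. The deposited values are counts of UMIs, and no normalized values were used. Cells were kept with more than 200 genes, under 20% mitochondrial UMIs, over 5% ribosomal UMIs and a log10 depth no further than 3 scaled MAD from the library's median, and the top 8% by a doublet score against simulated pairs (seed 7) were removed. Total UMIs were 227398362, 236714826, 182150138 and 149169498 at days 4, 5, 6 and 11. UMIs were summed by day and class, with exact Poisson, Clopper-Pearson and conditional binomial intervals. With 1 library a day no test was made and p-values were not computed. Genes at 5 CPM or more were called at 2 times on CPM plus 1. Named genes were the members, the splitting genes, the further heavy chains, the filament partners and the 3 genes most like each member. Members and lists were chosen with earlier results of these data known. Alternatives were mean shares over cells, other filters and other limits. Tools were Python 3.11.15, numpy 2.4.6, scipy 1.17.1, scikit-learn 1.9.0, pandas 2.3.3 and matplotlib 3.10.9.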

Additional observations from a re-analysis of the deposited data

Results flagged for a closer look

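The Myl7, Myl2 and Shox2 splits were compared between days 6 and 11. In 3 cases the interval of the ratio lay wholly above 1 at one day and wholly below 1 at the other. The Nppa split was left out, because only 3 Myl7-high cells had Nppa at day 6. Each case is from 1 library a day, and the difference between days was not tested. In 2 of these cases 1 of the 2 ratios was near level. Myh10 was at 1.052 times the level of other cells in the Myl7-high cells of day 6 and at 0.6183 times at day 11. Myh6 was at 4.036 times the level of the remaining Myl7-high cells in Myl2-high cells of day 6, of which there were 39, and at 0.8471 times in the 372 of day 11. Myh6 was at 0.511 times in cells with Shox2 against cells without at day 6 and at 1.035 times at day 11. Kept cells of day 11 were shallower, and the counts of that day name another version of the counting tool, so day and library cannot be told apart.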

How the results depend on the processing

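With each cell counting the same, Myh10 at day 4 held 64.4% of the family (62.7% in the report), Myh6 at day 11 held 15.2% over all cells (54.45%) and 62.1% in Myl7-high cells (67.8%), Myh10 in other cells 74.5% (66.2%) and Myh3 in Myog positive cells 31.2% (62.2%). The share of Myh6 in the pair became 44.2% at day 6, 72.6% at day 11 and 44.8% in Myl2-high cells. With doublet-like cells kept, Myh6 in Myl7-high cells was 67.3% and Myh3 in Myog positive cells 58.5%. With every cell over 200 genes, Myh6 was 55.9% over all cells and 67.2% in Myl7-high cells, Myh10 in other cells 63.6% and Myh3 58.2%. Adding the further heavy chains gave Myh10 62.2% at day 4. A limit of 1000 CPM of Myl7 gave Myh6 66.7%, Myh10 in other cells 72.6%, the pair 69.5% and the pair in Myl2-high cells 45.3%, and a limit of 5000 CPM gave 72.76%, 45.87%, 75.6% and 51.8%. A limit of 2 Myog UMIs gave Myh3 65.9% of the family and a UMI of it in 44.8% of thinned cells in place of 32.0%. Limits of 500 and 2000 CPM of Myl2 gave 49.3% and 44.7% for the pair in Myl2-high cells. Of the choices made after seeing the data, cells taken by 8 cardiomyocyte markers gave the pair 69.4%, and other cells without them gave Myh10 73.4%. Day 11 results rest on shallower cells, and intervals cover counting error alone. No paired analysis was possible because each day is 1 library.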
